A study of Mus musculus with 56 samples.

Results

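The UDP-glucuronosyltransferases of the 2 and 3 families were followed in mouse liver RNA. They were taken by gene symbol from the deposited expression table, and 10 genes were found among 23813 named genes, namely Ugt2a3, Ugt2b1, Ugt2b5, Ugt2b34, Ugt2b35, Ugt2b36, Ugt2b37, Ugt2b38, Ugt3a1 and Ugt3a2. Poly(A) RNA had been sequenced from the livers of 12 male mice in 3 groups of 4. All 12 mice received propylthiouracil (PTU), which blocks the thyroid from making hormone, at 0.15% of a low-iodine diet for 16 days. The 4 hypothyroid WT mice received PTU, and the 4 hyperthyroid WT mice, labelled PTU_T3, were also given 5 μg of triiodothyronine (T3) by injection for the last 4 to 6 days. The 4 hypothyroid L-NCORdeltaID mice received PTU and carried, in the liver, a mutant of the corepressor NCOR1 that lacks domains for binding the thyroid hormone receptor (TR). These mice were kept on a mixed C57BL/6;129S background, and the driver of the deletion is not given in the sources used here. The study does not state the background of the WT mice used for RNA. Strain and mutation therefore cannot be told apart in comparisons with WT livers. The study lists mean ages for its groups over more mice than were sequenced, with the L-NCORdeltaID mice younger on average than both WT groups, and the part of age in any difference from WT livers was not tested. The comparison of both WT groups addresses the response to T3, and the comparison of both hypothyroid groups addresses what losing these NCOR1 domains does without hormone. The study also reports less of the deacetylase HDAC3 at a number of sites without TR in these mutant mice. It proposes that the deleted domains may serve contact with regulators other than TR, and these contacts cannot be told apart here. Hyperthyroid L-NCORdeltaID livers were not analysed here.

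UDP-glucuronosyltransferases (UGTs) sit in the endoplasmic reticulum and join a sugar to small fat-soluble molecules, which makes them soluble enough to leave in bile or urine. Enzymes of the UGT2 family transfer glucuronic acid from UDP-glucuronic acid to steroids, bile acids, fatty acids and many drugs, and the liver is their main site. The human UGT3 enzymes use other UDP-sugars, among them UDP-N-acetylglucosamine. Conjugation in the liver is also 1 of the ways by which thyroid hormone itself is cleared. In the canonical model, unliganded TR holds corepressors such as NCOR1 at its target genes, and T3 exchanges them for coactivators. The study proposes that this switch accounts for only part of enhancer activation by T3. It found HDAC3 at a minority of the T3-responsive regions bound by TR in hypothyroid livers.

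The 8 Ugt2 members lie in 1 cluster of mouse chromosome 5 that spans 601 kb (mm9, chr5:87318792-87919896) and holds 9 protein-coding genes in the GENCODE M1 annotation, all of them Ugt2 genes. Each of the 8 has 6 exons. Ugt2b37 lies 100.2 kb from Ugt2b5 on one side and 70.2 kb from Ugt2a3 on the other, and Ugt2b38 follows Ugt2a3 after another 72.7 kb. Ugt3a1 (chr15:9209584-9244787) and Ugt3a2 (chr15:9265305-9300710) stand 20.5 kb apart on chromosome 15, in the same orientation and with 7 exons each. The coding sequences of Ugt2b5 and Ugt2b38 were 97.0% identical, those of Ugt2b5 and Ugt2b37 94.7%, and those of Ugt2b37 and Ugt2b38 94.1%. Ugt3a1 and Ugt3a2 were 93.3% identical.

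The promoters of Ugt2b37, Ugt2b5 and Ugt2b38 are shown because these close copies were the 3 members whose RNA passed the threshold with T3, in opposite directions. The letters are RefSeq promoter sequence (GRCm38.p6), 5′ to 3′ on the minus strand, placed in mm9 by exact match, and capitals mark the bases that are not the same in all 3 after alignment.
Ugt2b37: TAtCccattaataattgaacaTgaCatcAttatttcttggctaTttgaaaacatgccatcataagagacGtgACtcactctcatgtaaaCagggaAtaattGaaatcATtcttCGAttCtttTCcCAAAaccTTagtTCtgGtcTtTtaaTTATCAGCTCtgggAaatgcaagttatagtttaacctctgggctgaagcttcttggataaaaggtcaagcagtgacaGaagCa
Ugt2b5: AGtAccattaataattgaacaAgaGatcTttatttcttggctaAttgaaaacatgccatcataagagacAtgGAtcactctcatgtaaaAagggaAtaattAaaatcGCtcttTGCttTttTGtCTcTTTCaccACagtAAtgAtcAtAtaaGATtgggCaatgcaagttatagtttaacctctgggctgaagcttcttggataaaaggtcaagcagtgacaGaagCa
Ugt2b38: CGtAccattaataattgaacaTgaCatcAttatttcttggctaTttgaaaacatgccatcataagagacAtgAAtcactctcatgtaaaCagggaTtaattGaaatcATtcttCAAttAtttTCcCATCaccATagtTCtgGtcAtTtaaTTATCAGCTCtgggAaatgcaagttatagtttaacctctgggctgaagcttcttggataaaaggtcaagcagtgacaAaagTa
In mm9 they lie at chr5:87683831-87684063 for Ugt2b37, chr5:87569366-87569593 for Ugt2b5 and chr5:87853232-87853464 for Ugt2b38, and their last base is 2, 23 and 4 bases upstream of the GENCODE start site. Over 235 aligned positions, 80.0% held the same base in all 3. Ugt2b37 and Ugt2b38 were alike at 94.0% of them, Ugt2b37 and Ugt2b5 at 81.7%, and Ugt2b5 and Ugt2b38 at 83.4%. The member that was higher with T3 and 1 of those that were lower therefore had the most similar pair of promoters among the 3. The nuclear receptor half-site AGGTCA, searched on both strands, was found within the stretch of 62 bases that all 3 share, starting 39 bases before the RefSeq start in Ugt2b37, 22 in Ugt2b5 and 25 in Ugt2b38. It was also found 25 bases before the start of Ugt2b36 and 215 before that of Ugt2b35, so that 5 of the 9 members with a promoter entry held it, against 16.3% of 32851 promoter windows of the same 300 bases. The promoters of close copies are not independent of each other. The half-site GTTAAT of the liver factor HNF1 was found in Ugt2a3 and Ugt3a1, against 7.1% of windows, and overlapped no AGGTCA. Ugt3a2 has no entry in the promoter table.

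A deposited list of 37200 regions acetylated at H3K27 or H3K9, marks of active promoters and enhancers, gave each region once for the whole study, with no level per condition. A region covered the start site of 9 of 10 members, compared with 59.2% of 13956 protein-coding genes. The region at Ugt2b37 was 6286 bases long (chr5:87680347-87686632) and covered 24.3% of the gene. Ugt2b38 was the member without one, and the nearest region lay 1126 bases upstream of its start (chr5:87854354-87855824).

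**Figure D1:**
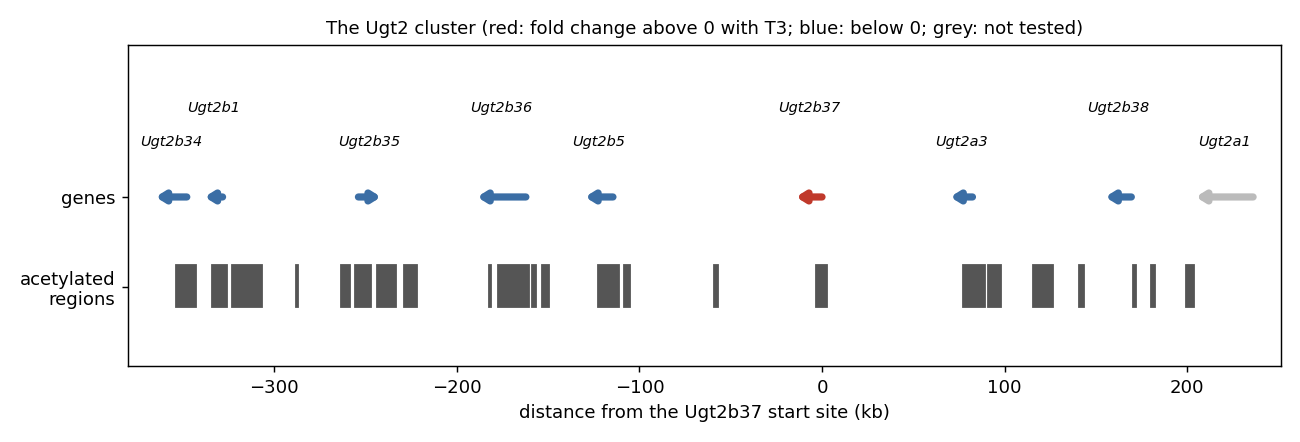
The Ugt2 genes (arrows, in the direction of transcription) and the acetylated regions of the deposited list (grey blocks) by distance in kb from the start site of Ugt2b37; red marks a fold change above 0 in hyperthyroid over hypothyroid WT livers, blue one below 0 and grey a gene not tested. The red gene lies between blue ones, and the start of Ugt2b38 at 169.4 kb has no region over it.

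The table gives RPKM, which scales the reads of a transcript to its length and to the aligned reads of the library. Levels of different genes can so be compared, but the study kept uniquely aligned reads downstream, and close copies may read low. Of all stretches of 50 bases, other coding transcripts hold 41.7% of those of Ugt2b5, 37.4% for Ugt2b38 and 18.3% for Ugt2b37. The size of any such loss was not tested. In hypothyroid WT livers 8 members had group means from 21.5 to 515 RPKM, and Ugt2b37 and Ugt2b38 had means of 0.46 and 2.4 RPKM. The order was Ugt2b36, Ugt2b1, Ugt2b5, Ugt2b34, Ugt3a2, Ugt2b35, Ugt2a3, Ugt3a1, Ugt2b38 and Ugt2b37. Each neighbour in this order stood apart from the next, with no overlap between their 4 livers. The depth recovered from the steps between low RPKM values ranged from 21240000 to 42580000 reads per library. At this depth Ugt2b36 rested on 28015 to 36061 reads per hypothyroid WT library, whereas Ugt2b37 rested on 6 to 60, and these read numbers are approximate because the transcript lengths came from GENCODE M1.

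Several facts of the whole series touch these values. Ncor1, the targeted gene, was at 12.1 to 13.9 RPKM in L-NCORdeltaID and 14.1 to 15.6 in hypothyroid WT livers, and since the mutant lacks only part of the gene this level does not check the genotype. Hepatocyte markers were abundant in every library (8 of 8 analysed). They summed to 43400 to 55000 RPKM in hypothyroid WT, 21500 to 29900 in hyperthyroid WT and 35500 to 39600 in L-NCORdeltaID livers. Alb alone had means of 31800, 14300 and 22700 RPKM in these groups. The 6 markers of Kupffer cells and macrophages analysed, none at 0 in any group, summed to 42.2 to 59.9 RPKM in hypothyroid WT, 132 to 218 in hyperthyroid WT and 47.3 to 129 in L-NCORdeltaID livers. In bulk liver, fewer hepatocytes and less UGT RNA per hepatocyte cannot be told apart. Hypothyroid WT replicate 3 stood apart in Dio1, a T3-induced deiodinase gene, with 57.7 RPKM against 0.719 to 8.98 in the other 3 and 459 to 641 in hyperthyroid livers. The L-NCORdeltaID livers also differed in Dio1, at 0.567, 0.591, 20.9 and 12.1 RPKM. Dio1 was picked after its values were seen, and results that rest on this liver are given with and without it.

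With T3, Ugt2b37 went from the lowest member to a level above that of Ugt3a1, while most of the abundant members were lower. Ugt2b37 was called higher, and Ugt2b5 and Ugt2b38 were called lower, where a call with T3 required that the log2 fold change exceeded 1 in either direction, beside an adjusted p under 0.01. Across all genes tested 8.28% were called higher and 3.47% lower. Without regard to fold, 1 member was higher and 6 were lower at an adjusted p under 0.01, against 24.5% and 7.71% of all genes. The 6 were 3 with all 12 libraries in 1 fit, where Ugt2b1, Ugt2b35 and Ugt2b38 had adjusted p-values of 0.0348, 0.0279 and 0.0153, and 4 to 7 when single livers were left out. Without hyperthyroid replicate 3 the higher members were 2, since Ugt3a2 then had an adjusted p of 0.00902. The livers of both groups did not overlap for 2 members that were higher and 7 that were lower, against 35.8% and 10.8% of all genes. The median log2 fold change was -0.67 over the 10 members and 0.23 over the 13941 genes tested. When the libraries were scaled by the median of gene ratios the latter moved to 0.04, and all members then kept their direction.

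**Figure D2:**
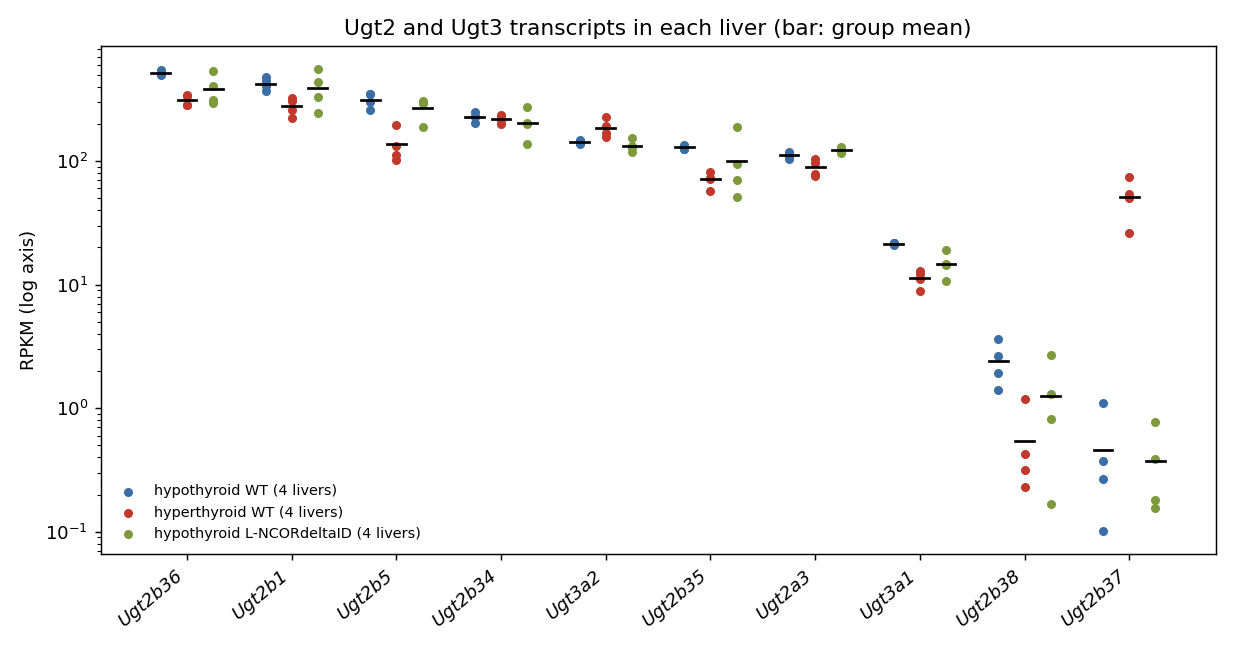
RPKM on a log axis of each member in each of 12 livers, with hypothyroid WT, hyperthyroid WT and hypothyroid L-NCORdeltaID in blue, red and green and group means as bars. Ugt2b37 sits between 0.102 and 1.10 RPKM in all hypothyroid livers and between 26.0 and 74.6 in the 4 hyperthyroid livers.

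Ugt2b37 was at 0.102, 0.377, 1.10 and 0.265 RPKM in hypothyroid WT livers. It was at 74.6, 54.2, 26.0 and 50.2 RPKM in hyperthyroid livers, or 1047 to 3544 reads. Every hyperthyroid liver was far above every hypothyroid one, and the highest hypothyroid value was that of replicate 3. The ratio of the means was 111, or 207 without hypothyroid replicate 3, and the log2 fold change on log2(RPKM + 0.1) was 6.73 ± 0.51 (SE, n = 4 against 4, adjusted p = 2.21e-05). Without that liver the log2 fold change was 7.20 with an adjusted p of 1.36e-05. Of the 50-base words of the Ugt2b37 transcript, 15.2% also occur in Ugt2b5 and 11.5% in Ugt2b38. Reads from these stretches may have been left out as not uniquely aligned. The level of Ugt2b37 was 0.0337% to 0.313% of that of Ugt2b5 in hypothyroid WT livers and 13.2% to 66.2% in hyperthyroid ones.

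Ugt2b5, the third most abundant member in hypothyroid WT livers, changed the other way. It was at 303, 347, 351 and 257 RPKM in hypothyroid WT and at 113, 102, 198 and 133 RPKM in hyperthyroid livers. The groups did not overlap, although hyperthyroid replicate 3 lay closest to the hypothyroid range. This was also the liver with the least Ugt2b37. Ugt2b5 fell by 1.24 ± 0.20 on the log2 scale (adjusted p = 0.00102).

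Ugt2b38, its closest copy in coding sequence, was scarce in every liver. It was at 2.65, 3.63, 1.41 and 1.92 RPKM in hypothyroid WT and at 0.231, 0.316, 0.422 and 1.20 RPKM in hyperthyroid livers, from 78 to 213 and from 11 to 59 reads. The groups did not overlap, and hyperthyroid replicate 4 came closest. The fitted log2 fold change was -2.10 ± 0.43 (adjusted p = 0.00353). Leaving out hypothyroid replicate 1 or 2 or hyperthyroid replicate 3 gave adjusted p-values of 0.0115, 0.0110 and 0.0107, above the threshold. Ugt2b38 was at 0.403% to 1.04% of the level of Ugt2b5 in hypothyroid WT livers and shares 34.1% of its 50-base words with it. Whether reads were lost or misplaced between these copies was not tested.

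Of the other Ugt2b members, 3 had an adjusted p under 0.01 below the fold threshold, all lower with T3. Ugt2b36, the most abundant, was at 545, 504, 511 and 501 RPKM in hypothyroid WT and at 336, 287, 286 and 345 RPKM in hyperthyroid livers. Its log2 fold change was -0.72 ± 0.09 (adjusted p = 0.000306). Both groups were narrow and lay well apart. Ugt2b35 went from 129 ± 5.32 to 71.0 ± 10.3 RPKM (mean ± SD, n = 4), a log2 fold change of -0.87 ± 0.11 (adjusted p = 0.000234). Ugt2b1, whose rat counterpart conjugates opioids and phenols, went from 423 ± 47.3 to 279 ± 45.8 RPKM, a log2 fold change of -0.61 ± 0.14 (adjusted p = 0.00522). Leaving out hypothyroid replicate 1, 2 or 3 or hyperthyroid replicate 2 or 3 took Ugt2b1 above the threshold, with adjusted p-values from 0.0104 to 0.017.

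Ugt2b34 was the member that hardly moved. It was at 249, 233, 226 and 202 RPKM in hypothyroid WT and at 234, 229.5, 215 and 199 RPKM in hyperthyroid livers, so that the groups overlapped almost fully. Its log2 fold change was -0.05, with a 95% interval from -0.25 to 0.15 (adjusted p = 0.665). Ugt2a3, whose human counterpart conjugates bile acids, was at 105 to 118 RPKM in hypothyroid WT and 76.2 to 103 RPKM in hyperthyroid livers. The groups did not overlap, but the log2 fold change of -0.34 ± 0.11 did not pass the threshold (adjusted p = 0.0268).

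The 2 Ugt3 genes parted company. Ugt3a1 was at 21.7, 20.8, 21.7 and 21.7 RPKM in hypothyroid WT and at 11.2, 12.9, 12.3 and 8.95 RPKM in hyperthyroid livers. Its hypothyroid values were almost equal, and its log2 fold change was -0.93 ± 0.11 (adjusted p = 0.000193, under the fold threshold). Ugt3a2 was at 148, 137, 146 and 141 RPKM in hypothyroid WT and at 226, 193, 156 and 170 RPKM in hyperthyroid livers. All hyperthyroid values were higher, but its log2 fold change of 0.37 ± 0.11 did not pass the threshold (adjusted p = 0.0222). When the libraries were scaled by the median of gene ratios, that fold change was 0.16 (limma, adjusted p = 0.354). Within a library the level of Ugt3a1 was 14.7% to 15.4% of that of Ugt3a2 in hypothyroid WT, 8.98% to 12.3% in L-NCORdeltaID and 4.95% to 7.84% in hyperthyroid livers, 3 ranges that do not overlap. The transcripts share 195 of their 50-base words, 8.88% of those of Ugt3a1.

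**Figure D3:**
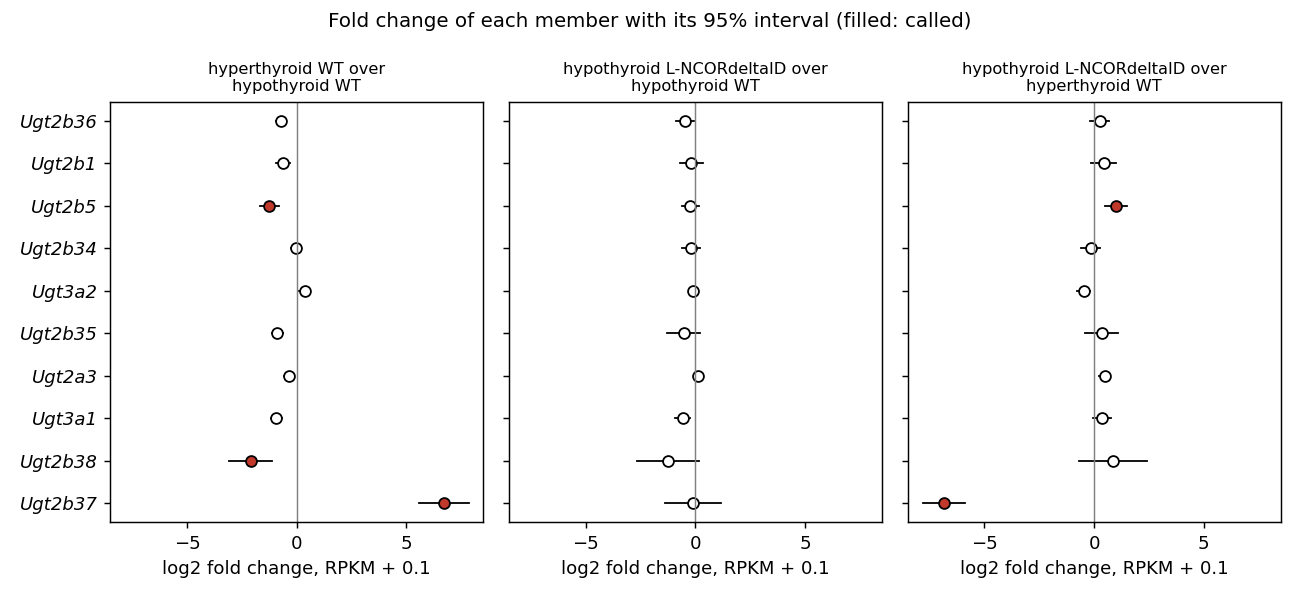
Log2 fold change of each member on log2(RPKM + 0.1), with its 95% interval, in the 3 comparisons; filled points passed the call rule. Ugt2b37 lies at 6.73 with T3 and at -0.11 in L-NCORdeltaID over WT hypothyroid livers, where no point is filled.

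The summed level of the 10 members was 1888 ± 112 RPKM in hypothyroid WT, 1357 ± 94.2 in hyperthyroid WT and 1623 ± 408 in L-NCORdeltaID livers (mean ± SD, n = 4). Both WT groups did not overlap (1721 to 1963 against 1278 to 1479 RPKM). Ugt2b36 held the largest share in all 3 groups, 27.4% ± 1.62 in hypothyroid WT, 23.1% ± 1.24 in hyperthyroid WT and 23.7% ± 1.88 in L-NCORdeltaID livers. The share of Ugt2b5 was 16.6% ± 1.51 in hypothyroid and 10.2% ± 3.64 in hyperthyroid WT livers, and it dropped from the third to the fifth place. The share of Ugt3a2 was 7.59% ± 0.50 in the former and 13.7% ± 1.69 in the latter. Ugt2b37 went from 0.0241% ± 0.0224 to 3.73% ± 1.27 of the sum.

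**Figure D4:**
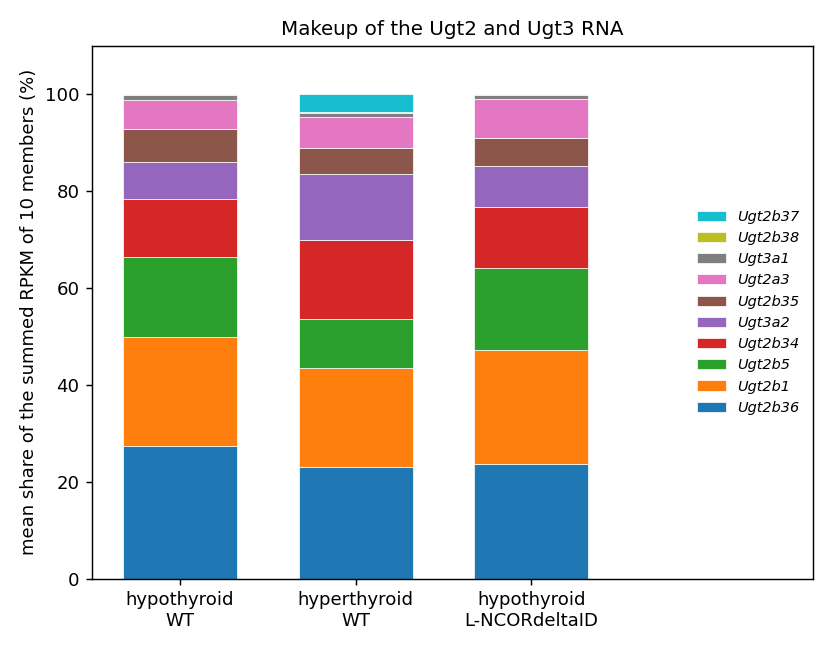
Mean share (%) of each member in the summed RPKM of all 10, in hypothyroid WT, hyperthyroid WT and hypothyroid L-NCORdeltaID livers (4 livers each, stacked bars from 0). Ugt2b36 holds 23.1% to 27.4% throughout, and Ugt2b37 is visible with 3.73% in hyperthyroid livers alone.

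In hypothyroid livers the L-NCORdeltaID mutation left Ugt2b37 near the floor of the measurement, at 0.157, 0.182, 0.387 and 0.769 RPKM (12 to 56 reads). These values lay within the range of hypothyroid WT livers. The log2 fold change was -0.11, with a 95% interval from -1.39 to 1.16 (adjusted p = 0.936). It was 0.35 without hypothyroid WT replicate 3, and -0.5 to 0.35 when each liver was left out in turn. No member was called by limma in either direction at an adjusted p under 0.01 and any fold, against 0.725% of 13790 genes called higher and 0.544% called lower. At an unadjusted p under 0.05 there were 2, Ugt2b36 and Ugt3a1, both lower. The share of all genes under this unadjusted threshold was not worked out, here or for the lists below. The groups did not overlap for 1 member that was lower and 0 that were higher, against 5.36% and 7.78% of all genes.

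That member was Ugt3a1, at 14.6, 10.7, 14.5 and 19.0 RPKM in L-NCORdeltaID livers, all below the 20.8 RPKM of the lowest WT liver. Its log2 fold change was -0.57 ± 0.15 (adjusted p = 0.0667). Ugt2b36 was at 309.7, 293, 406 and 533 RPKM, with a log2 fold change of -0.46 ± 0.18 (adjusted p = 0.185). Ugt2b5 was at 294, 190.1, 293 and 304 RPKM, a log2 fold change of -0.23 with a 95% interval from -0.61 to 0.15 (adjusted p = 0.479). Its interval did not reach the change of -1.24 seen with T3. Ugt2a3 was the member with a fold change above 0, at 117 to 130 RPKM and a log2 fold change of 0.14 (adjusted p = 0.291).

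The spread among L-NCORdeltaID livers was wide. For 7 of the 8 abundant members the coefficient of variation was larger than in hypothyroid WT livers, and it reached 59.5% for Ugt2b35 against 4.12% in WT. Ugt2b35 was at 70.1, 51.5, 95.4 and 187 RPKM, so that replicate 4 had 3.63 times the level of replicate 2 and stood above all WT livers. Replicate 2 was the lowest for 8 of 10 members and replicate 4 the highest for 8 of 10. The shares of all genes lowest or highest in these replicates were not worked out. Ugt2a3 ran the other way, with replicate 2 the highest and replicate 4 the lowest, over a range of only 1.11 times. Among L-NCORdeltaID livers, replicate 2 also had the largest sum of macrophage markers (129 RPKM) and replicate 4 the smallest (47.3 RPKM). Replicate 2 had the largest sum of hepatocyte markers as well (39600 RPKM), and replicate 4 the smallest (35500 RPKM). Sums in replicates 2 and 4 were 44.0 and 43.6 RPKM for endothelial, 98.8 and 72.3 for stellate and 19.3 and 11.3 for bile duct markers. Blood markers were higher in replicate 4, with 111 and 155 RPKM. The depths were alike (38050000 and 38670000 reads). The part of these differences in the UGT values was not tested.

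**Figure D5:**
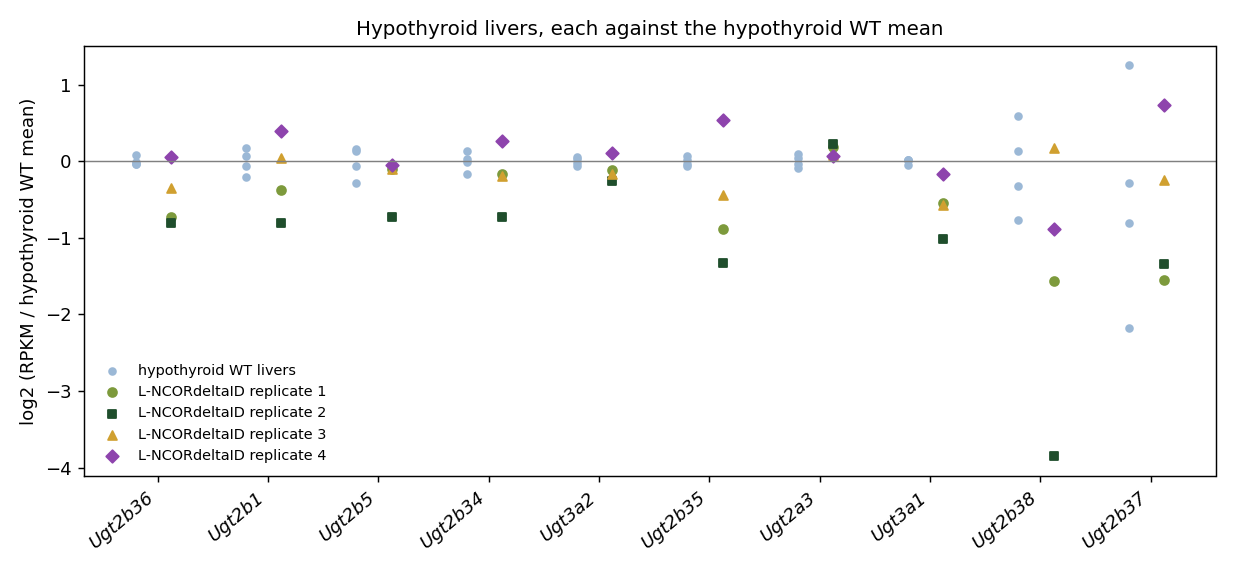
Log2 ratio of each hypothyroid liver to the hypothyroid WT mean for each member, with WT livers in light blue and the 4 L-NCORdeltaID replicates as separate symbols. For Ugt2b35 the mutant replicates run from -1.33 to 0.54 while WT livers stay between -0.06 and 0.07.

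The L-NCORdeltaID livers were also set against the hyperthyroid WT livers, a comparison that shares libraries with both others. Ugt2b37 was lower by 6.84 ± 0.43 on the log2 scale (adjusted p = 1.5e-05) and Ugt2b5 was higher by 1.01 ± 0.23 (adjusted p = 0.00802). These were the 2 calls, against 5.52% of 14017 genes called lower and 3.0% called higher. Leaving out hyperthyroid replicate 1, 2 or 4 or L-NCORdeltaID replicate 1, 3 or 4 ended the call of Ugt2b5, with adjusted p-values from 0.0193 to 0.0257. Without regard to fold, Ugt2a3 was also higher (0.48 ± 0.11, adjusted p = 0.00992), which makes 2 members higher and 1 lower, against 5.7% and 15.5% of all genes. Ugt2a3 was above the threshold when any liver but hyperthyroid replicate 1 was left out (adjusted p 0.0153 to 0.03), and at 0.0261 with the replicate number as a block. The livers did not overlap for Ugt2a3, higher, and for Ugt2b37 and Ugt3a2, lower, against 9.57% and 28.7% of all genes. Ugt2b38 overlapped, at 0.818, 0.167, 2.70 and 1.31 RPKM in L-NCORdeltaID livers (log2 fold change 0.84, adjusted p = 0.356).

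Among the other UGT genes none was called by limma in any comparison, and 0 had an unadjusted p under 0.05. Of 12 listed, 8 were tested, all of them Ugt1a transcripts, which share their last exons and so count many of the same reads. Their median log2 fold change with T3 was 0.13. Ugt1a1, the bilirubin-conjugating enzyme, was at 332 ± 47.5 RPKM in hypothyroid and 393 ± 60.7 in hyperthyroid WT livers (log2 fold change 0.24, adjusted p = 0.162). Ugt2a1, Ugt2a2 and Ugt8a were at most 0.068 RPKM in any liver and were not tested.

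Among genes that make, carry or remove glucuronic acid, Ugdh, Ugp2 and Ces1e fell with T3. They were the 3 called lower of 12 tested, with a median log2 fold change of -0.11 against 0.23 over all genes. At an adjusted p under 0.01 and any fold, 6 of the 12 were lower and 5 higher, against 7.71% and 24.5% of all genes. Ugdh, which oxidises UDP-glucose to UDP-glucuronic acid, the sugar donor of UGT2 enzymes, fell from 116 ± 13.9 to 39.6 ± 6.55 RPKM (log2 fold change -1.56, adjusted p = 2.95e-05). Ugp2, which makes UDP-glucose, fell from 321 ± 59.4 to 119 ± 29.8 RPKM (-1.44, adjusted p = 0.000305). Ces1e, also known as egasyn, which holds β-glucuronidase in the endoplasmic reticulum, fell from 101 ± 14.9 to 17.9 ± 2.79 RPKM (-2.49, adjusted p = 6.58e-06). No gene of this list was called by limma in hypothyroid L-NCORdeltaID over WT livers (4 at an unadjusted p under 0.05). Against hyperthyroid WT livers, Ces1e, Ugdh and Ugp2 were called higher in L-NCORdeltaID livers and Slc35b1, a transporter gene of the SLC35 family, lower.

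Among 14 nuclear receptors and liver factors known to act on UGT genes, Nr1i3 was called in both comparisons with hypothyroid WT livers. Nr1i3 encodes CAR, a receptor that induces UGT genes in response to drugs. It was at 173 ± 25.5 RPKM in hypothyroid WT, 44.4 ± 8.81 in hyperthyroid WT and 81.7 ± 6.06 in L-NCORdeltaID livers. It fell by 1.97 on the log2 scale with T3 (adjusted p = 2.34e-05) and by 1.07 in L-NCORdeltaID livers (adjusted p = 0.00145). Nr1h4, which encodes the bile acid receptor FXR, fell in L-NCORdeltaID livers from 60.6 ± 1.72 to 39.3 ± 1.59 RPKM (-0.62, adjusted p = 0.000876). The other 13 genes were not called with T3, and none of the 14 was called by limma in L-NCORdeltaID over hyperthyroid WT livers (8 at an unadjusted p under 0.05). At an adjusted p under 0.01 and any fold, 2 were higher and 3 lower with T3, against 24.5% and 7.71% of all genes. In L-NCORdeltaID over hyperthyroid WT livers the same rule gave 3 higher and 2 lower, against 5.7% and 15.5%. Thrb, the main TR of liver, was at 7.57 ± 0.95, 8.72 ± 0.79 and 7.87 ± 1.68 RPKM in the 3 groups in the order above.

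RNA of several cell type markers also changed with T3. All 6 macrophage markers tested were called higher in hyperthyroid livers, with a median log2 fold change of 1.95, and 3 of 8 hepatocyte markers were called lower, namely Cyp2e1, Ttr and Alb. Of the endothelial, stellate, bile duct and blood markers, 1 in each list was called higher with T3 and 0 lower. No marker of any list was called by limma in hypothyroid L-NCORdeltaID over WT livers (11 of the 35 tested at an unadjusted p under 0.05). The part of these changes in the values of the UGT genes was not tested.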

How the data were processed

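Liver RNA-seq of 12 mice, 4 per group, and the list of acetylated regions were used, and 0 columns of per-sample values were left unused. The authors aligned reads to mm9 with STAR, quantified transcripts with HOMER, and deposited RPKM; their own differential expression used DESeq2 on counts not used here. The first transcript stood for each of 23813 named genes (1 row without a name was left out), and each member had 1 transcript. The limma package (3.58.1, under R 4.3.3) was applied, variance trend included, to log2(RPKM + 0.1) of every gene that reached 0.1 RPKM in 4 or more of both groups' libraries, and p-values were adjusted by Benjamini-Hochberg over all these genes. Calls required an adjusted p under 0.01 and, after the study's methods, a log2 fold change beyond 1 in either direction, or of any size between both hypothyroid groups. The pseudocount shrinks fold changes of low genes. In simulated data, 97.5% to 99% of 200 genes changed by 3 on the log2 scale were recovered. The simulation gave both groups the spread of the WT group used as reference and changed no scarce genes. It therefore does not cover smaller changes, scarce genes or the wider spread of the L-NCORdeltaID livers.

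All members were named, and of each other list the called genes, at most the 3 with the largest fold change per comparison. Slc35b1, Ugt1a1, Thrb and Dio1 fall outside this rule and were chosen after their values were seen, and 1 result of the lists is not reported here. The members and lists were chosen with earlier results of these data known. Replicates are separate livers, so p-values measure the spread between mice. Depth was recovered as the number of reads that makes RPKM times GENCODE M1 length whole for low genes with 1 transcript length. Start sites and coding sequences came from GENCODE M1. Deposited region coordinates, other values than scores, were used as positions only. Promoters were aligned with MAFFT 7.526, and figures were drawn with matplotlib 3.10.9. Alternatives were other pseudocounts (0.01 and 1), filters, scaling, fits and transcripts, and leaving out each library.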

Additional observations from a re-analysis of the deposited data

Results flagged for a closer look

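Of 30 groups of 4 livers, 1 for each member and condition, 2 held a liver whose gap to the nearest other, as a share of the group's range, exceeded the 95% critical value of Dixon's test, and chance alone gives about 1 in 20. Ugt2b5 was at 190.1 RPKM in hypothyroid L-NCORdeltaID replicate 2, with the other 3 livers at 293 to 304 RPKM. Ugt3a1 was at 20.8 RPKM in hypothyroid WT replicate 2, with the other 3 at 21.7 RPKM, a gap of little size in a group whose coefficient of variation was 2.19%.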

How the results depend on the processing

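Ugt2b37 was called higher with T3 under all 17 alternatives (log2 fold change 5.11 to 7.20, adjusted p 2.33e-06 to 0.000916) and lower in L-NCORdeltaID over hyperthyroid WT livers under all 17 (-7.25 to -5.18). Ugt2b5 was called lower with T3 under all 17 (-1.45 to -1.12). The count of members called lower with T3, 2, was 1 with all 12 libraries in 1 fit, where Ugt2b38 had an adjusted p of 0.0153, and 1 to 2 when single livers were left out. It was 4 with the median of gene ratios, which added Ugt2b35 and Ugt3a1 (-1.08 and -1.13). The fold change of Ugt2b38 was -1.14 with a pseudocount of 1. The replicate numbers did not pair the livers (same-number correlations from -0.145 to 0.175), and with a replicate block the count was 1, because Ugt2b38 had an adjusted p of 0.0129. No other member's call changed with the block. Counted at any fold, the 6 lower members with T3 were 3 with all 12 libraries and 4 with the block (4 to 7 without single livers), and the 1 higher member was 1 to 2 without single livers. In L-NCORdeltaID over hyperthyroid WT livers, the 2 higher members at any fold were 1 with either other pseudocount or the block, 0 with no filter or no variance trend, and 0 to 1 without single livers, and the 1 lower member was 2 with all 12 libraries. The count of members called higher in L-NCORdeltaID over hyperthyroid WT livers, 1, was 0 with no filter and 0 with no variance trend (adjusted p of Ugt2b5 0.0135 and 0.0124), and 0 to 1 when single livers were left out. In hypothyroid L-NCORdeltaID over WT livers 0 members were called under every alternative. No called member changed direction. Of members that were not called, Ugt2b1 and Ugt2b37 changed sign in that comparison without single livers, and Ugt2b34 and Ugt2b35 in the one with hyperthyroid livers, the former also with the median of gene ratios.

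Over all genes, calls with T3 (1155 higher, 484 lower) were 802 and 641 with the median of gene ratios and 575 and 319 with a pseudocount of 1. Calls in L-NCORdeltaID over hyperthyroid WT livers (421 and 774) were 559 and 541, and 284 and 480. In hypothyroid L-NCORdeltaID over WT livers the 100 and 75 calls were 20 and 25 with the replicate block, 63 and 57 with no variance trend, 139 and 118 with all 12 libraries, and 36 to 110 and 28 to 77 when single livers were left out. The causes of these changes were not tested. Acetylated regions covered 9 start sites also within 1000 bases, and 10 within 5000 or 10000. Each member had 1 transcript, so its share did not depend on that choice. With a mean of at least 1 RPKM, Ugt2b37 was not tested between the hypothyroid groups nor Ugt2b38 between L-NCORdeltaID and hyperthyroid WT. Counts of 6 to 60 reads limit the hypothyroid level of Ugt2b37.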

Other observations

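Some members varied together between livers of the same group. With group means removed, Pearson's r was computed on log2 levels over the 12 livers for 45 pairs. The highest were 0.90 for Ugt2b1 and Ugt2b36, 0.86 for Ugt2b34 and Ugt3a1, 0.84 for Ugt2b35 and Ugt2b36, and 0.81 for Ugt2b34 and Ugt2b35. Ugt2a3 stood apart, with -0.43 to Ugt2b35 and -0.57 to Ugt3a1. Ugt2b5 reached at most 0.52, with Ugt2b35 and Ugt2b38, and had -0.25 with Ugt3a2. For Ugt2b5 and Ugt2b37, which moved in opposite directions with T3, r was 0.03. All points share libraries and their scaling, and the L-NCORdeltaID livers contribute most of the spread, so these are descriptions of these 12 libraries.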
